A study of Pogona vitticeps with 24 samples.

Results

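The genes of ceruloplasmin (*CP*) and of 6 complement components (*C1R*, *C1S*, *C2*, *C5*, *C6* and *C7*) were followed through dental tissue of the bearded dragon *Pogona vitticeps*. The 7 genes were taken by symbol from a table of 11126 genes, and all 7 were among the 9987 genes whose mean over the usable groups was at least 3 log2 CPM (CPM are read counts scaled to a fixed library total). They were chosen by their measured log2 CPM in this same table and the differences between its groups, so the values are a description and no test was made on them. The study laser-captured dental lamina epithelium and the mesenchyme around it from hatchlings, at the posterior jaw position, which bears acrodont teeth fused to the jaw crest in WT, and at the anteriormost position, which bears pleurodont teeth attached to the inner side of the jaw in WT. The 24 samples fell into 8 groups of 3, from 3 *Sca*/+ animals (Scaleless, heterozygous for a mutation in the ectodysplasin gene *EDA*) and 3 Wild-type (WT) animals. To the authors' rough look by eye the anterior dentary of each *Sca*/+ animal appeared abnormal, without an exact typing of its teeth. The table holds 1 value per gene and group, named as a mean by the authors, so no spread between animals can be given. WT posterior epithelium could not be used, because 11121 of its 11126 values form a fill series, which leaves 7 groups and 9 comparisons. *C6* averaged 3.06 log2 CPM and passed the filter only through WT anterior mesenchyme (4.89). Counts in which *C6* is lower than that group are therefore a description only.

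Complement is a set of plasma and tissue proteins that mark microbes and damaged cells for removal. In mammals the proteases C1r and C1s sit on the recognition protein C1q, and active C1s cleaves C4 and C2, whose fragments form an enzyme that cleaves C3. Further along, C5 is cleaved into an attractant for leukocytes and a fragment that gathers C6, C7, C8 and C9 into a pore in the target membrane. Ceruloplasmin is a copper-carrying ferroxidase that oxidises iron as it leaves cells, and in mammals it rises in plasma with inflammation. The liver is the main mammalian source of most of these proteins, and macrophages, fibroblasts and epithelia also make several of them.

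In each usable column nearly all values were whole multiples of a single step of 0.311 to 1.30 CPM, within 0.0065 CPM, which gave a depth of 789353 to 3264515 steps. It is not known whether the steps of a column come from 1 library or from several combined. The intervals below treat a step as 1 count. They are exact 95% Clopper-Pearson intervals that cover counting error only, not the differences between animals or amplification. The tissue labels were checked against markers, of which 10 to 11 of 12 epithelial ones were higher in epithelium by at least 1 log2 unit in the 3 pairs and 15 to 16 of 16 mesenchymal ones lower. RNA of the 12 epithelial markers was present in mesenchyme too. It summed to 5484 CPM in *Sca*/+ posterior, 6126 CPM in *Sca*/+ anterior and 4063 CPM in WT anterior mesenchyme. The paired epithelia had 17586, 15698.5 and 12399 CPM in the same order. *EDA* lay at 18.6 CPM in *Sca*/+, against 22.7 CPM in WT anterior epithelium. It lay at 16.9 CPM in *Sca*/+, against 5.05 CPM in WT anterior mesenchyme, on only 13 and 7 steps. In posterior mesenchyme *EDA* lay the other way, at 6.23 CPM in *Sca*/+, against 11.1 CPM in WT, on 11 and 12 steps. An RNA level does not by itself check a label for a mutation. In bulk tissue, fewer cells of a type and less RNA per cell cannot be told apart.

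In all, 6 of the 7 genes had their highest level in anterior WT mesenchyme, and *C5* alone was highest in posterior *Sca*/+ mesenchyme. The genes were chosen with these levels known, and the share of all genes highest there was not computed. Nothing is therefore read from that count. *CP* covered a 65.3-fold range over the 7 groups, with 34.8 CPM in posterior *Sca*/+ epithelium at one end and 2273 CPM in anterior WT mesenchyme at the other. That range held rank 37 among the 9987 genes. The proteases *C1R* and *C1S* ranged over 37.1-fold and 58.7-fold. The later components *C7*, *C6* and *C5* ranged over 34.7-fold, 15.8-fold and 13.6-fold, and *C2* over 25.4-fold.

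**Figure D1:**
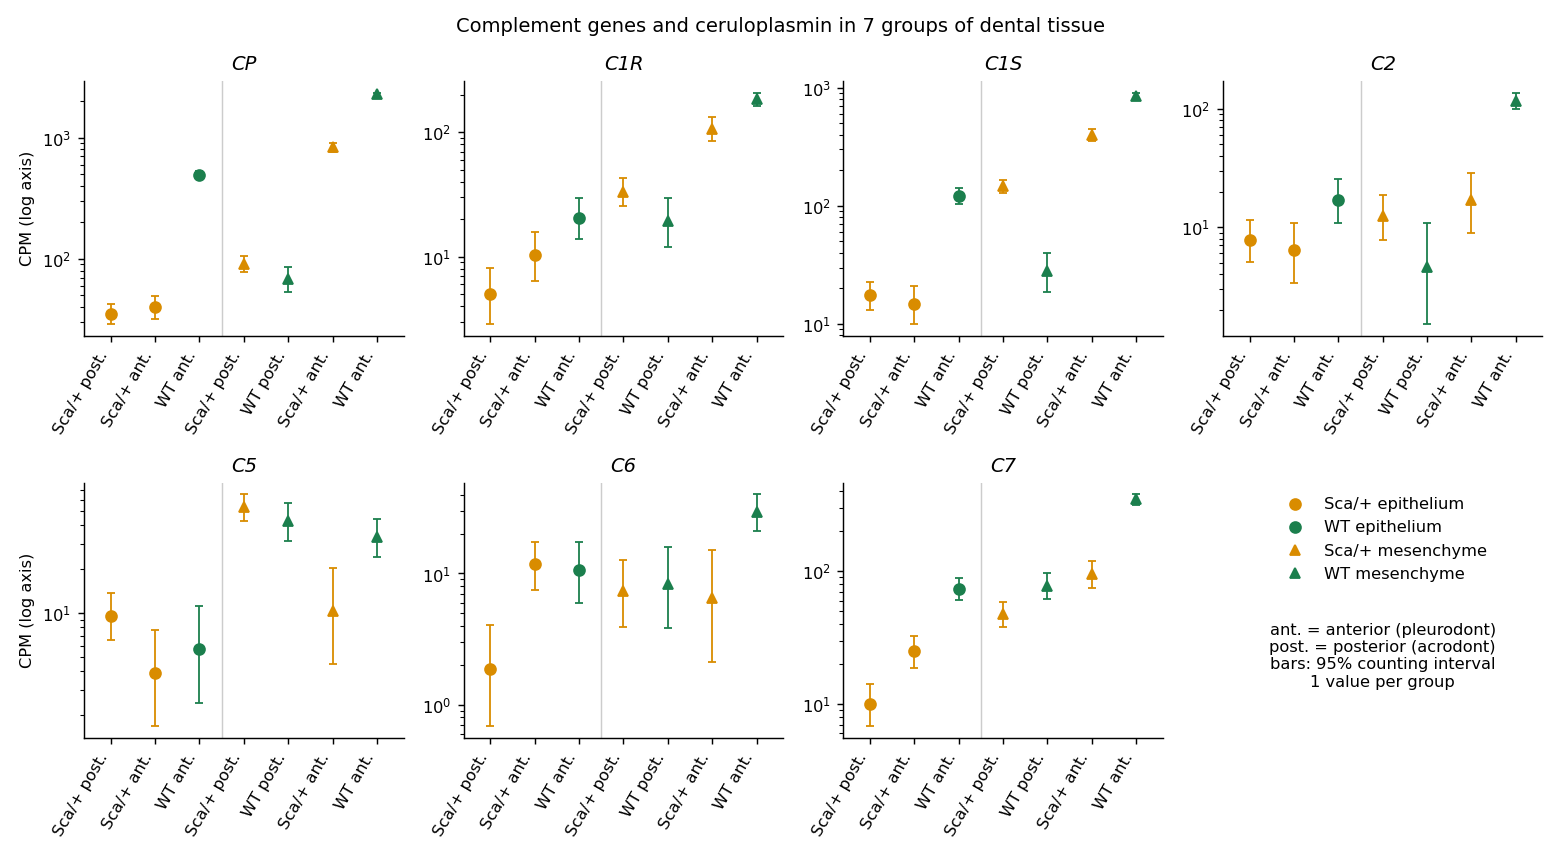
Level of *CP* and the 6 complement genes in each usable group, in CPM on a log axis that is scaled for each gene, with *Sca*/+ in orange, WT in green, epithelium as circles and mesenchyme as triangles. Points are the 1 value per group and bars are 95% counting intervals. The triangle of WT anterior mesenchyme stands highest in 6 of the 7 panels (2273 CPM for *CP*), and in the panel of *C5* it stands at 33.2 CPM, under both posterior mesenchymes.

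The comparison of posterior with anterior mesenchyme in WT asked how tissue at the acrodont position differs from tissue at the pleurodont position. Here 6 of the 7 genes were lower by at least 1 log2 unit in posterior mesenchyme and none was higher, where 7.97% of all genes were lower and 9.15% higher by the same rule. Since this contrast helped to choose the genes, nothing is read from that count. *CP* stood at 67.7 CPM in posterior and 2273 CPM in anterior WT mesenchyme, a difference of −5.07 (−5.43 to −4.74), which held rank 2 among the most negative of the 9987 genes. *C1S*, the protease that cleaves C4 and C2, stood at 27.8 CPM in posterior and 859.6 CPM in anterior WT mesenchyme, a difference of −4.95 (−5.52 to −4.43).

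Its partner *C1R*, which activates C1s, had 19.5 CPM in posterior and 185 CPM in anterior WT mesenchyme, a difference of −3.25 (−3.96 to −2.60). *C2*, the protease subunit of the classical C3-cleaving enzyme, had 4.63 CPM in posterior and 118 CPM in anterior WT mesenchyme, a difference of −4.67 (−6.31 to −3.41). The posterior value of *C2* rests on 5 steps. The early components and *CP* therefore held ranks 2, 4, 5 and 28 among the most negative differences of the table, in the order *CP*, *C1S*, *C2* and *C1R*.

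The genes of the pore differed less between these positions. *C7* had 77.9 CPM in posterior and 346 CPM in anterior WT mesenchyme, a difference of −2.15 (−2.50 to −1.81). *C6* had 8.34 CPM in posterior and 29.6 CPM in anterior WT mesenchyme, a difference of −1.83 (−3.05 to −0.76). *C5* was the exception, with 42.6 CPM in posterior and 33.2 CPM in anterior WT mesenchyme, and the interval of its difference included 0 (0.36, −0.26 to 0.98). The median difference of the 7 genes was −3.25, beside 0.04 for all genes.

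In *Sca*/+ mesenchyme the same comparison by position gave smaller differences for 6 of these genes. Lower by at least 1 log2 unit in posterior *Sca*/+ mesenchyme were *CP*, *C1R* and *C1S*, 3 of 7 genes where 10.4% of all genes were lower, and *C5* was higher, 1 of 7 where 8.34% of all genes were higher. *CP* had 90.6 CPM in posterior and 829.98 CPM in anterior *Sca*/+ mesenchyme, a difference of −3.19 (−3.45 to −2.94). *C1R* had 33.4 CPM in posterior and 107 CPM in anterior *Sca*/+ mesenchyme (−1.67, −2.18 to −1.17), and *C1S* had 147 CPM in posterior and 398 CPM in anterior *Sca*/+ mesenchyme (−1.44, −1.68 to −1.20).

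*C5*, whose cleavage opens the terminal pathway, went the other way, with 53.3 CPM in posterior and 10.4 CPM in anterior *Sca*/+ mesenchyme, a difference of 2.35 (1.32 to 3.61). The anterior value rests on 8 steps. *C7* had 47.6 CPM in posterior and 94.97 CPM in anterior *Sca*/+ mesenchyme, a difference of −0.997 (−1.47 to −0.52) that fell just short of the rule. Neither *C2* (12.5 CPM in posterior and 16.9 CPM in anterior *Sca*/+ mesenchyme, −0.44, −1.49 to 0.67) nor *C6* (7.36 CPM in posterior and 6.50 CPM in anterior *Sca*/+ mesenchyme, 0.18, −1.40 to 2.02) differed beyond counting error. The median of the 7 was −0.997, beside 0.02 for all genes. For each of the 7 genes the difference by position was less negative or more positive in *Sca*/+ than in WT mesenchyme. The gap ran from 1.15 log2 units for *C7* to 4.23 for *C2*, and with 1 value per group this was not tested. The WT difference by position helped to choose the genes, and the share of all genes with such a gap was not computed. Nothing is therefore read from the shared direction.

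**Figure D2:**
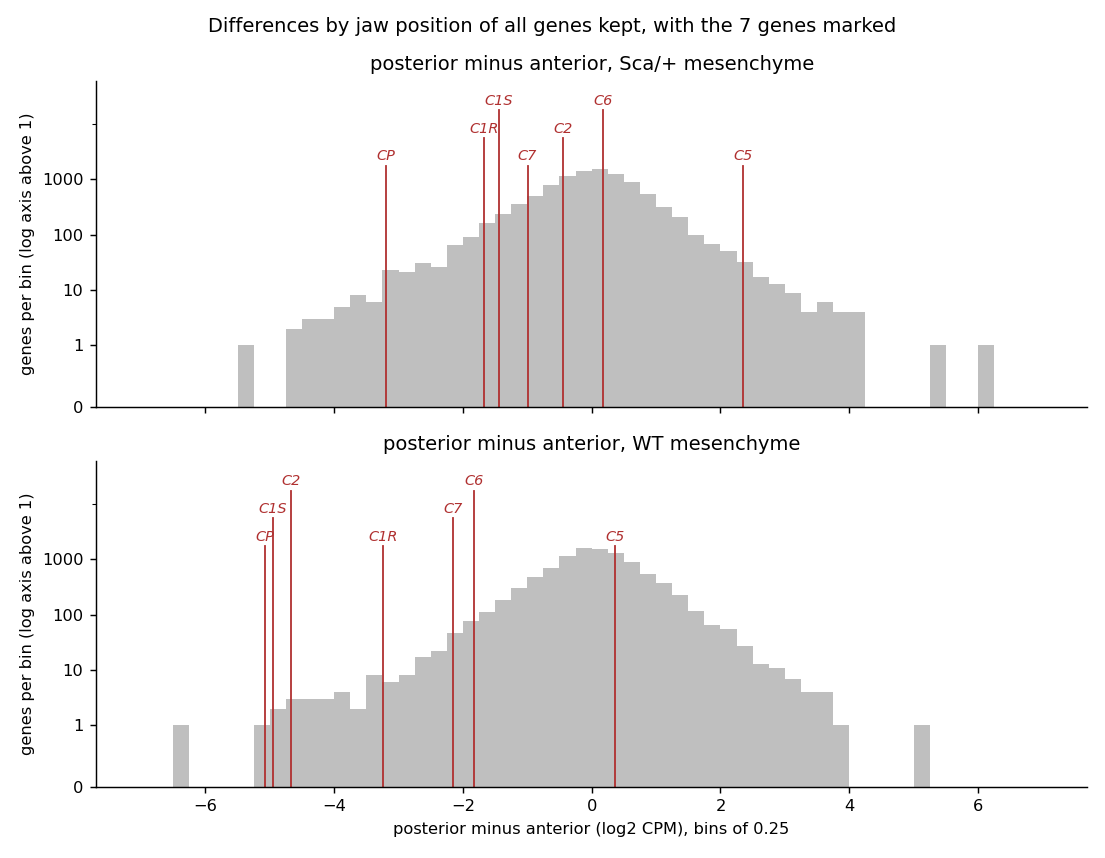
Number of genes (log axis above 1) by their log2 difference between posterior and anterior mesenchyme, over all 9987 genes in bins of 0.25 log2 units, in *Sca*/+ (upper) and WT (lower), with red lines at *CP* and the 6 complement genes. In WT 7.97% of all genes lie at −1 or below, and *CP*, *C1S*, *C2* and *C1R* lie at −3.25 or below, while in *Sca*/+ *CP* lies at −3.19 and *C5* at 2.35.

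Posterior and anterior epithelium could be compared in *Sca*/+ alone. There 3 of 7 genes were lower by at least 1 log2 unit in posterior *Sca*/+ epithelium, where 6.68% of all genes were, and 1 of 7 was higher, where 7.02% of all genes were. *C6* had 1.87 CPM in posterior and 11.7 CPM in anterior *Sca*/+ epithelium, a difference of −2.65 (−4.23 to −1.32), with 6 steps behind the posterior value. *C7*, which joins C6 in the forming pore, had 9.95 CPM in posterior and 24.9 CPM in anterior *Sca*/+ epithelium (−1.32, −2.01 to −0.66), and *C1R* had 4.98 CPM in posterior and 10.3 CPM in anterior *Sca*/+ epithelium (−1.04, −2.08 to −0.03). *C5* was the higher gene, with 9.64 CPM in posterior and 3.91 CPM in anterior *Sca*/+ epithelium (1.30, 0.15 to 2.64). *CP* (−0.20, −0.62 to 0.23), *C1S* (0.25, −0.41 to 0.94) and *C2* (0.29, −0.73 to 1.38) did not differ beyond counting error between these groups. The position difference of *CP* thus stood in mesenchyme of both genotypes and not in *Sca*/+ epithelium, where *CP* was at 34.8 CPM in posterior and 40.0 CPM in anterior tissue.

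The comparison of *Sca*/+ with WT at the anterior position asked what the *EDA* mutation goes with where WT animals form pleurodont teeth. In anterior epithelium 5 of 7 genes were lower in *Sca*/+ by at least 1 log2 unit and none was higher, where 10.0% of all genes were lower and 12.2% higher. *CP* had 40.0 CPM in *Sca*/+, against 489.5 CPM in WT anterior epithelium, a difference of −3.61 (−3.96 to −3.28) that held rank 10 among the most negative of the table. *C1S* had 14.7 CPM in *Sca*/+, against 122 CPM in WT anterior epithelium, a difference of −3.06 (−3.67 to −2.49) at rank 26. The remaining lower genes were *C7*, with 24.9 CPM in *Sca*/+, against 73.7 CPM in WT (−1.56, −2.08 to −1.07), *C2*, with 6.35 CPM in *Sca*/+, against 17.0 CPM in WT (−1.42, −2.52 to −0.39), and *C1R*, with 10.3 CPM in *Sca*/+, against 20.5 CPM in WT (−1.001, −1.89 to −0.14), a value at the edge of the rule. *C5* (−0.54, −2.15 to 1.08) and *C6* (0.14, −0.85 to 1.18) showed no difference beyond counting error in anterior epithelium, where *C5* rests on 8 steps in each genotype.

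Anterior mesenchyme gave lower values in *Sca*/+ for 6 of 7 genes by the same rule and a higher value for none, where 8.37% of all genes were lower and 11.5% higher. Among the 6 is *C6*, which passed the filter only through the WT group. *C2* differed most, with 16.9 CPM in *Sca*/+, against 118 CPM in WT anterior mesenchyme, a difference of −2.80 (−3.74 to −1.98) at rank 45. *C6* had 6.50 CPM in *Sca*/+, against 29.6 CPM in WT (−2.19, −3.88 to −0.85, with 5 steps in *Sca*/+), and *C7* had 94.97 CPM in *Sca*/+, against 346 CPM in WT (−1.86, −2.24 to −1.51). Of the terminal genes, *C7* was further apart by genotype in anterior mesenchyme than the C1 proteases were, with counting intervals apart. The intervals of *C5* and *C6* overlapped those of *C1S* and *C1R*. These values were not tested against each other.

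*C5* had 10.4 CPM in *Sca*/+, against 33.2 CPM in WT anterior mesenchyme (−1.67, −2.97 to −0.58), and *CP* had 829.98 CPM in *Sca*/+, against 2273 CPM in WT (−1.45, −1.58 to −1.33). *C1S* had 398 CPM in *Sca*/+, against 859.6 CPM in WT (−1.11, −1.30 to −0.93). *C1R*, at 107 CPM in *Sca*/+, against 185 CPM in WT, was lower by less than the rule (−0.79, −1.17 to −0.43). The difference by genotype was more negative in epithelium than in mesenchyme for *CP* and *C1S*, with counting intervals apart. For the other 5 genes the intervals of the tissues met or overlapped. RNA of the 16 mesenchymal markers was present in anterior epithelium too, at a summed 10209 CPM in *Sca*/+ and 11972 CPM in WT. In anterior mesenchyme these markers summed to 118903 CPM in *Sca*/+ and 51851 CPM in WT. The part of mesenchymal RNA in the epithelial values of the 7 genes was not tested. The medians of the 7 genes were −1.42 in epithelium and −1.67 in mesenchyme, beside 0.00 and 0.04 for all genes.

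At the posterior position, where WT animals form acrodont teeth, fewer of the genes were apart between genotypes. None of the 7 genes was lower in *Sca*/+ posterior mesenchyme by at least 1 log2 unit, where 8.13% of all genes were, and 2 were higher, where 8.82% of all genes were. *C1S* had 147 CPM in *Sca*/+, against 27.8 CPM in WT posterior mesenchyme, a difference of 2.40 (1.85 to 3.00) at rank 29 among the most positive. *C2* had 12.5 CPM in *Sca*/+, against 4.63 CPM in WT posterior mesenchyme (1.43, −0.01 to 3.18), and counting error alone could give that value. *C1R* (0.78, 0.04 to 1.57) and *CP* (0.42, 0.01 to 0.84) lay slightly higher in *Sca*/+, with 33.4 against 19.5 CPM for *C1R* in *Sca*/+ against WT and 90.6 against 67.7 CPM for *CP*. *C7* was lower in *Sca*/+ by less than the rule, with 47.6 CPM in *Sca*/+, against 77.9 CPM in WT (−0.71, −1.16 to −0.26), and *C5* (0.32, −0.20 to 0.86) and *C6* (−0.18, −1.52 to 1.23) did not differ beyond counting error. The comparisons by position and by genotype share columns, so their values are not independent of each other.

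**Figure D3:**
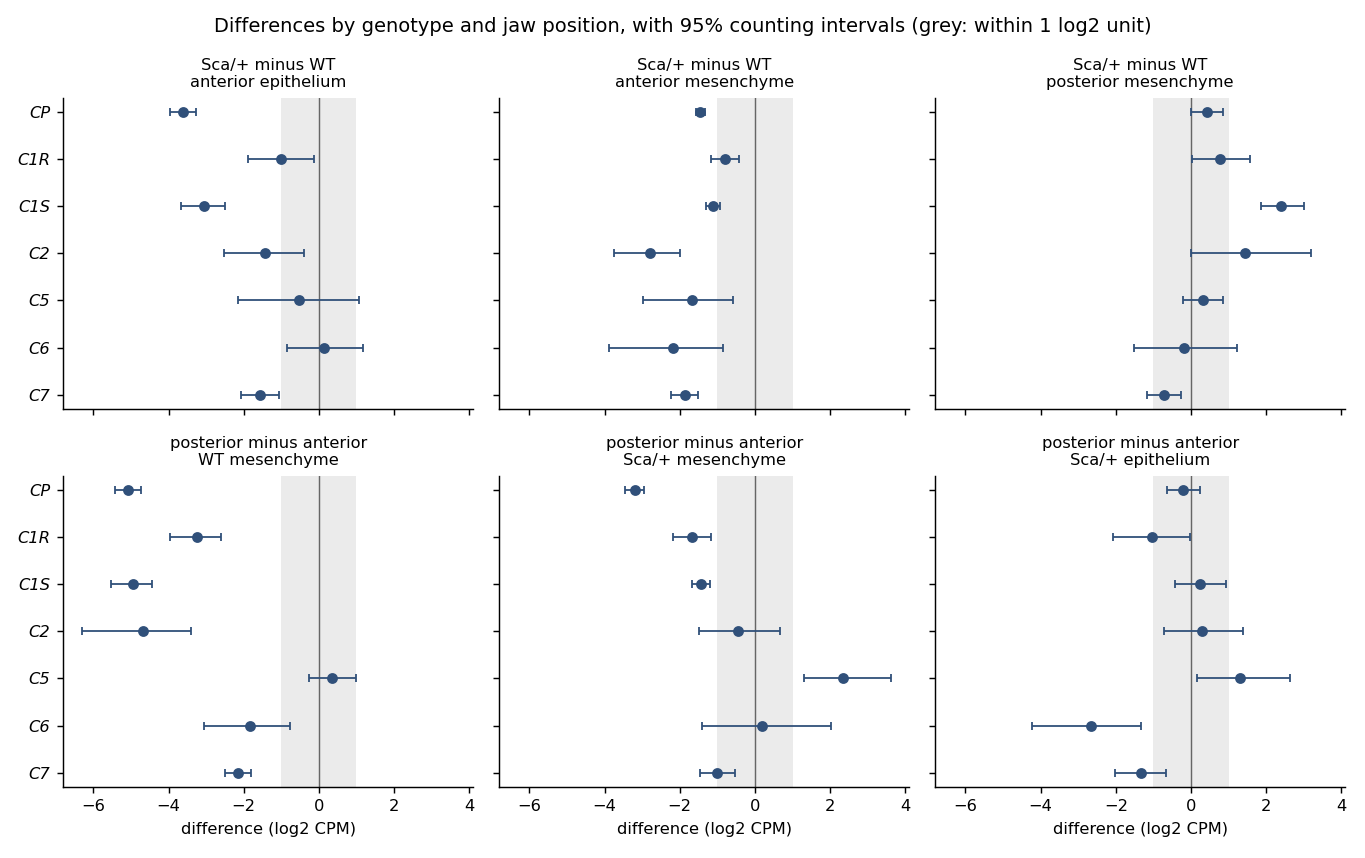
Log2 difference of *CP* and the 6 complement genes by genotype (upper row) and by jaw position (lower row), with 95% counting intervals as bars and differences within 1 log2 unit shaded grey. Differences by position in WT mesenchyme reach −5.07 for *CP*, while *C5* lies at 0.36 there and at 2.35 in *Sca*/+ mesenchyme.

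All 7 genes were lower in epithelium than in the mesenchyme around it by at least 1 log2 unit in the anterior WT jaw, where 12.7% of all genes were lower and 8.66% higher. The differences ran from −1.48 (−2.44 to −0.59) for *C6*, at 10.6 CPM in epithelium and 29.6 CPM in mesenchyme, to −3.17 (−3.78 to −2.61) for *C1R*, at 20.5 CPM in epithelium and 185 CPM in mesenchyme. *CP* was 4.64-fold lower in WT anterior epithelium than in mesenchyme (−2.22, −2.34 to −2.10).

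In the anterior *Sca*/+ jaw 6 of 7 genes were lower in epithelium, where 14.3% of all genes were lower and 11.5% higher. *CP* stood at 40.0 CPM in epithelium and 829.98 CPM in mesenchyme, which is 20.7-fold lower (−4.37, −4.72 to −4.04), and *C1S* stood at 14.7 CPM in epithelium and 398 CPM in mesenchyme, which is 27.2-fold lower (−4.76, −5.36 to −4.22). *C6* was the exception, at 11.7 CPM in epithelium and 6.50 CPM in mesenchyme (0.85, −0.57 to 2.60), and the interval of *C5* also included 0 (−1.41, −3.03 to 0.20).

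In the posterior *Sca*/+ jaw 6 of 7 genes were lower in epithelium, where 13.7% of all genes were lower and 12.1% higher. They ran from *CP*, at 34.8 CPM in epithelium and 90.6 CPM in mesenchyme (−1.38, −1.74 to −1.02), to *C1S*, at 17.4 CPM in epithelium and 147 CPM in mesenchyme (−3.07, −3.52 to −2.65). *C2*, at 7.78 CPM in epithelium and 12.5 CPM in mesenchyme, did not differ beyond counting error (−0.68, −1.57 to 0.22). The medians of the 7 genes were −2.55, −1.93 and −2.26 in the WT anterior, *Sca*/+ anterior and *Sca*/+ posterior jaw, beside 0.06, 0.05 and 0.04 for all genes.

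Ordered by level, the groups separated well for *CP* and poorly for *C2* and *C6*. For *CP* the order ran WT anterior mesenchyme, *Sca*/+ anterior mesenchyme, WT anterior epithelium, *Sca*/+ posterior mesenchyme, WT posterior mesenchyme, *Sca*/+ anterior epithelium and *Sca*/+ posterior epithelium, and only the last pair did not differ beyond counting error. *CP* in WT anterior epithelium was thus above *CP* in posterior mesenchyme of either genotype. For *C1S* and *C1R* the mesenchyme of the anterior WT jaw, then that of the anterior *Sca*/+ jaw, stood apart from the rest, and *C1S* in *Sca*/+ posterior mesenchyme could not be told from WT anterior epithelium (147 and 122 CPM). For *C2* no neighbours below WT anterior mesenchyme differed beyond counting error, and the same held for *C6* from *Sca*/+ anterior epithelium down, although groups further apart in the order did differ. For *C5* the 3 highest groups, *Sca*/+ posterior, WT posterior and WT anterior mesenchyme, did not differ between neighbours, and neither did any neighbours among the other 4 groups.

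In the RefSeq annotation of the species (assembly PviZW2.1), in which 7 of 7 symbols were found, *C1R* and *C1S* are next to each other, *C6* and *C7* have a single unnamed gene between them, and *C2* lies next to *CFB*. The neighbours *C1R* and *C1S* had like profiles over the 7 groups (Pearson r = 0.94 of log2 CPM). *C6* and *C7* had r = 0.83. *CP* and *C1S*, which are not neighbours, had r = 0.93. The genes were chosen by their levels in these same columns, so nothing is read from these values about neighbours. Over the 15 pairs of genes without *C5* r lay between 0.55 and 0.94, and over the 6 pairs with *C5* between 0.13 and 0.43. By Spearman's rho, which uses ranks, *C6* lay at 0.14 to 0.39 with the members other than *C5*. *C5* lay at −0.18 to 0.54 with the other members, so by rank *C5* did not stand apart alone. These are descriptions over 7 columns that include 3 of epithelium and 4 of mesenchyme, and genes of a column share its library and depth.

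Of 56 other complement genes on a list by role, 13 were in the table, and those not found under their symbols, *C3* and *C4* among them, were not analysed here. In posterior compared with anterior WT mesenchyme 5 of these 13 were lower by at least 1 log2 unit and none was higher, where 7.97% of all genes were lower and 9.15% higher, with a median of −0.61 beside 0.04 for all genes. *SERPING1*, which encodes the inhibitor of C1r and C1s, had 76.9 CPM in posterior and 524 CPM in anterior WT mesenchyme (−2.77, −3.11 to −2.44), and *C1QA*, a chain of C1q, had 6.49 CPM in posterior and 37.5 CPM in anterior WT mesenchyme (−2.53, −3.92 to −1.39). *ITGB2*, the beta chain of leukocyte complement receptors, had 29.7 CPM in posterior and 134 CPM in anterior WT mesenchyme (−2.18, −2.77 to −1.63). The pentraxin *PTX3* (−1.11, −1.36 to −0.87) and *C9*, the last component of the pore (−1.04, −1.69 to −0.41), were the other lower genes.

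The recognition and regulator genes did not all go with the members. *SERPING1* followed them by genotype, at 29.3 CPM in *Sca*/+, against 123 CPM in WT anterior epithelium (−2.07, −2.52 to −1.64), and at 265 CPM in *Sca*/+, against 524 CPM in WT anterior mesenchyme (−0.98, −1.21 to −0.76). *C1QA* was not lower in *Sca*/+ at the anterior position, at 53.3 CPM in *Sca*/+, against 37.5 CPM in WT anterior mesenchyme (0.51, −0.12 to 1.13). Its interval included 0 in anterior epithelium too (0.58, −0.92 to 2.26). In posterior mesenchyme *C1QA* was higher in *Sca*/+ (1.73, 0.55 to 3.14). *C1S* was higher there as well (2.40), while *C7* was lower (−0.71). The mitochondrial and surface protein gene *C1QBP* was higher in *Sca*/+ in anterior epithelium (1.08, 0.88 to 1.30) and anterior mesenchyme (1.20, 0.95 to 1.45), and close to the rule in posterior mesenchyme (0.97, 0.73 to 1.22).

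*C9* had a pattern near that of *C5* in *Sca*/+ mesenchyme. It stood at 38.0 CPM in posterior and 5.2 CPM in anterior *Sca*/+ mesenchyme (2.87, 1.44 to 4.78), with 4 steps behind the anterior value. Anterior mesenchyme had 57.0 CPM of *C9* in WT, so that the difference by genotype was −3.45 (−5.36 to −2.04). Clusterin, *CLU*, which binds the forming pore, went against both, at 24.4 CPM in posterior and 97.6 CPM in anterior *Sca*/+ mesenchyme (−2.002, −2.58 to −1.44). Counted over the 13 genes, 4 were lower and 1 was higher by position in *Sca*/+ mesenchyme, 4 were lower and 2 higher by genotype in anterior epithelium, 1 was lower and 2 were higher by genotype in anterior mesenchyme, and 1 went each way in posterior mesenchyme. For all genes these shares were 10.4% lower and 8.34% higher by position in *Sca*/+ mesenchyme, and by genotype 10.0% and 12.2% in anterior epithelium, 8.37% and 11.5% in anterior mesenchyme and 8.13% and 8.82% in posterior mesenchyme. The remaining genes of the 13 were *COLEC12*, *CFI*, *CD59*, *CR1*, *CALR* and *LRP1*, of which *CD59* lay below 0 in each of these comparisons and the others on both sides of 0.

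**Figure D4:**
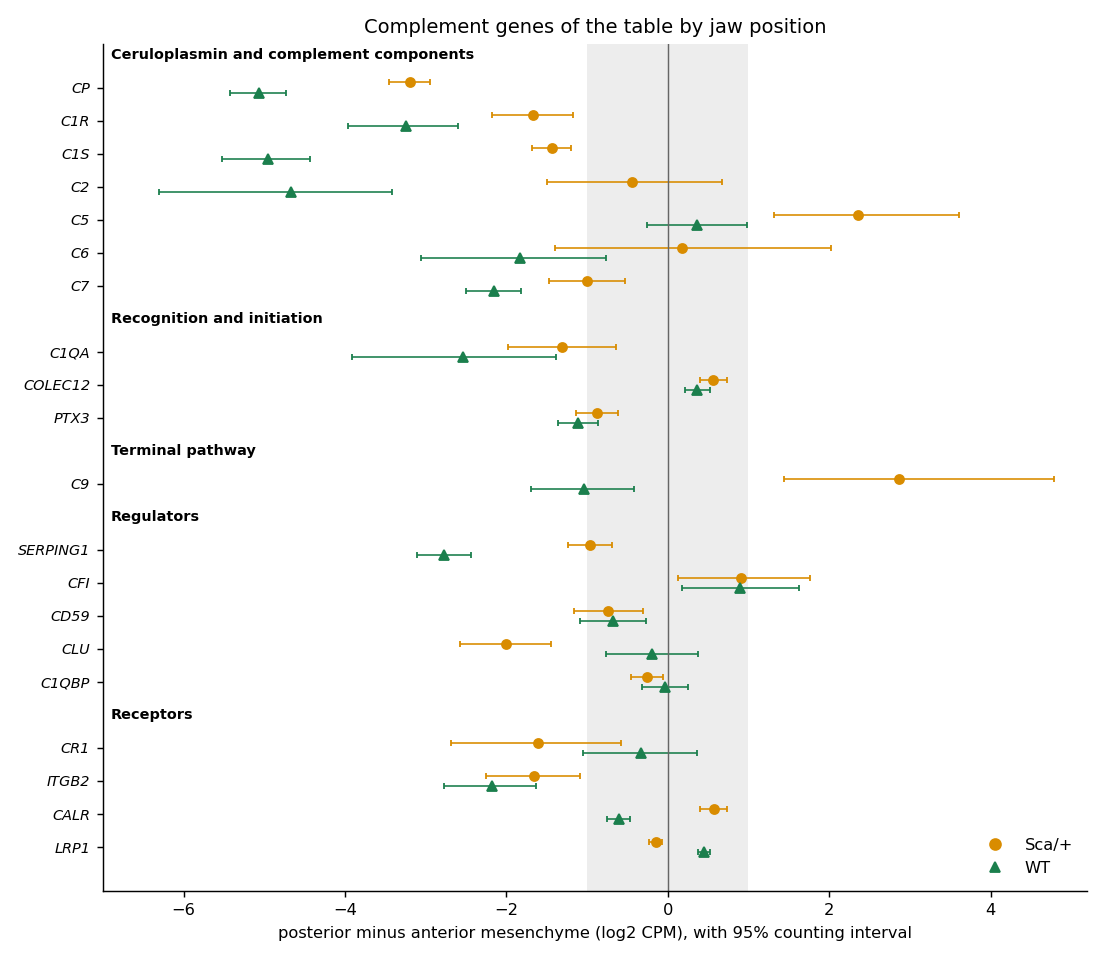
Log2 difference between posterior and anterior mesenchyme of *CP*, the 6 complement components and the 13 other complement genes of the table, grouped by role, with *Sca*/+ as orange circles, WT as green triangles, 95% counting intervals as bars and differences within 1 log2 unit shaded. In WT the differences reach −5.07 for *CP* and −2.77 for *SERPING1*, while in *Sca*/+ *C5* and *C9* stand to the right at 2.35 and 2.87.

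Genes that handle copper and iron beside ceruloplasmin went both ways. Of 32 on the list 16 were in the table, and by position in WT mesenchyme none was lower and 2 were higher by at least 1 log2 unit, where 7.97% of all genes were lower and 9.15% higher, with a median of 0.15. These 2 were the copper chaperones *CCS* (19.5 CPM in posterior and 5.05 CPM in anterior WT mesenchyme, 1.95, 0.66 to 3.42) and *ATOX1* (20.4 CPM in posterior and 7.94 CPM in anterior WT mesenchyme, 1.36, 0.26 to 2.55). Their anterior WT values rest on 7 and 11 steps. In *Sca*/+ mesenchyme *CCS* went the other way by position (2.83 CPM in posterior and 11.7 CPM in anterior tissue, −2.05, −3.97 to −0.32). The interval of *ATOX1* included 0 there (0.25, −0.53 to 1.09). *SLC40A1*, the iron exporter ferroportin whose iron ceruloplasmin oxidises, had 159 CPM in posterior and 96.0 CPM in anterior WT mesenchyme, and was higher in *Sca*/+ in anterior epithelium (180.2 CPM in *Sca*/+, against 70.1 CPM in WT, 1.36). The ferritin chain gene *FTH1* and the transferrin receptor gene *TFRC* were also higher in *Sca*/+ in anterior tissue, with 1.58 and 1.15 in epithelium and 1.33 and 1.19 in mesenchyme. In posterior mesenchyme, where *CP* was slightly higher in *Sca*/+ (0.42), *FTH1* (0.84, 0.71 to 0.99) and *SLC40A1* (0.49, 0.22 to 0.75) were higher as well. The intervals of *TFRC* (0.25, −0.19 to 0.70) and *ATOX1* (0.53, −0.21 to 1.32) included 0 there. *STEAP2*, a metalloreductase gene, was lower in *Sca*/+, with 14.7 CPM in *Sca*/+, against 35.4 CPM in WT anterior epithelium (−1.27, −1.98 to −0.59). In anterior mesenchyme it had 6.5 CPM in *Sca*/+, against 47.6 CPM in WT (−2.87, −4.54 to −1.58, with 5 steps in *Sca*/+). It was lower in *Sca*/+ posterior mesenchyme too (−1.06, −1.93 to −0.20), where *CP* was not. By position in WT mesenchyme *STEAP2* lay at −0.88 (−1.57 to −0.22). In these anterior comparisons 2 of 16 genes of the list were lower and 4 higher, in epithelium as in mesenchyme, beside 10.0% and 12.2% of all genes in epithelium and 8.37% and 11.5% in mesenchyme. The other lower gene was *SLC31A1*, a copper importer gene, in epithelium (−1.24, −2.71 to 0.14) and *STEAP1* in mesenchyme (10.4 CPM in *Sca*/+, against 67.1 CPM in WT, −2.69, −3.94 to −1.65), both named after their values were seen. By genotype in posterior mesenchyme 3 of 16 genes of the list were lower and 1 higher, where 8.13% of all genes were lower and 8.82% higher.

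Regulators of the acute-phase and interferon responses, which control several of these genes in mammals, were looked at as a list of 32, of which 20 were in the table and 17 passed the filter. By position in WT mesenchyme 10 of 17 were lower and none was higher, where 7.97% of all genes were lower and 9.15% higher, with a median of −1.13 beside 0.04 for all genes. *NFKBIZ*, a nuclear cofactor of NF-kappaB, had 64.9 CPM in posterior and 321 CPM in anterior WT mesenchyme (−2.31), and the transcription factor gene *CEBPB* had 18.5 CPM in posterior and 68.6 CPM in anterior WT mesenchyme (−1.89). By position in *Sca*/+ mesenchyme 3 of 17 were lower and none was higher, where 10.4% of all genes were lower and 8.34% higher. The median there was −0.18, with *CEBPB* at 0.27 (−0.87 to 1.56) and *NFKBIZ* at −1.20 (−1.68 to −0.72). In *Sca*/+ epithelium 4 of 17 were lower by position and none was higher, where 6.68% of all genes were lower and 7.02% higher. By genotype 6 of 17 were lower in *Sca*/+ anterior mesenchyme, where 8.37% of all genes were. Among them were *CEBPB* (−2.55, −3.72 to −1.56, with 9 steps in *Sca*/+) and *NFKBIZ* (−1.70, −2.07 to −1.35). In anterior epithelium 2 of 17 were lower in *Sca*/+, where 10.0% of all genes were. In posterior mesenchyme 2 were lower and 1 was higher in *Sca*/+, where 8.13% of all genes were lower and 8.82% higher, the last being *IFNGR2*, a chain of the interferon gamma receptor (1.85).

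Leukocyte genes moved with the members in part. Of 16 leukocyte markers 4 were in the table, and none was at 0 in any group. Their summed level was 98.01 CPM in *Sca*/+ posterior, 103 CPM in WT posterior, 191 CPM in *Sca*/+ anterior and 376 CPM in WT anterior mesenchyme, and in epithelium 38.3 CPM in *Sca*/+ posterior, 35.7 CPM in *Sca*/+ anterior and 69.4 CPM in WT anterior tissue. *PTPRC*, the pan-leukocyte marker CD45, had 13.9 CPM in posterior and 136 CPM in anterior WT mesenchyme, and 15.6 CPM in anterior *Sca*/+ mesenchyme. *SPI1*, which did not pass the filter, had 7.42 CPM in posterior and 43.3 CPM in anterior WT mesenchyme, and 6.5 CPM in anterior *Sca*/+ mesenchyme. *CSF1R*, a macrophage receptor gene, was close between the genotypes, at 121 CPM in *Sca*/+, against 133 CPM in WT anterior mesenchyme. *CD74* had 23.2 CPM in posterior and 63.5 CPM in anterior WT mesenchyme, and 48.1 CPM in anterior *Sca*/+ mesenchyme. The part of leukocytes in the levels of the 7 genes was not tested. Of 26 genes of liver plasma proteins only *APOH* and *F2* were in the table, and their summed level was 6.37 to 15.9 CPM in all 7 groups. The summed level of 6 vessel markers was lowest among mesenchymes in WT anterior tissue, at 1112 CPM, where 6 of the 7 genes were highest. The summed level of the 16 mesenchymal markers was lowest there too. It was 72594 CPM in *Sca*/+ posterior, 145127 CPM in WT posterior, 118903 CPM in *Sca*/+ anterior and 51851 CPM in WT anterior mesenchyme. Collagen genes weighed most in these sums, with *COL1A1* at 78297 CPM in WT posterior and 20185 CPM in WT anterior mesenchyme. Not every marker was lowest there, since *PDGFRA* (934 CPM) and *FN1* (2642 CPM) were highest among mesenchymes in WT anterior tissue. The part of the mesenchymal markers in the levels of the 7 genes was not tested.

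Among 2318 genes with symbols and a range of at least 2 log2 units, the profile most like that of *CP* over the 7 groups was *ITGB2* (r = 0.99), followed by *ENPEP*, an aminopeptidase gene, and *LRRIQ1* (0.95 each). *SERPING1* came first for both C1 proteases (r = 0.97 for *C1R* and 0.98 for *C1S*), with *TNFRSF14* (0.95) and *PTX3* (0.94) next for *C1R* and *CD74* (0.94) and *LRRIQ1* (0.91) next for *C1S*. For *C7* the first 3 were *TNFRSF14*, *PTPRC* and *PIK3CB* (0.97 each). The profile of *C2* was closest to *STC2* (0.94), *UAP1* (0.94) and *SBNO2* (0.93), and that of *C6* to *NR4A1* (0.96), *DACH2* (0.94) and *PDE4B* (0.93). The closest profiles to *C5* were *ADAMTS5*, a protease gene of cartilage matrix (0.98), *WNK2* (0.97) and *FGL2* (0.97). *ADAMTS5* had 157 CPM in *Sca*/+ posterior, 219 CPM in WT posterior, 20.8 CPM in *Sca*/+ anterior and 101 CPM in WT anterior mesenchyme.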

How the data were processed

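Libraries depleted of rRNA were made with the Nugen Ovation SoLo kit from microdissected dental tissue of hatchlings and sequenced as paired ends on an Illumina NextSeq. Per the study's methods and processing notes, the authors used Trimmomatic for trimming, STAR for alignment to the species' genome and for counting, and edgeR for the analysis of normalized counts. Versions and the annotation are not given in the sources used here. The authors deposited log2 CPM, 1 column for each of 8 groups, named as means. Of these, 7 columns were used. Library-size steps were recovered from each column, with a median of 26 to 106 steps per gene. Scripts in Python 3.11.15 (numpy 2.4.6, pandas 2.3.3, scipy 1.17.1, matplotlib 3.10.9) kept genes that averaged 3 log2 CPM or more, subtracted columns, called differences of at least 1 log2 unit higher or lower, and gave exact 95% counting intervals for them. They were tested on simulated data. No pseudocount was added. Columns summed to 861122 to 1047963 CPM.

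All 7 genes are named, with all listed complement genes in the table, up to 3 genes of each other list by their difference in WT mesenchyme by position, the genes beside *CP* in iron handling, and the 3 profiles most like each gene. *EDA* and the leukocyte and plasma protein genes are named as checks. The members and the lists were chosen with earlier results of these data known. Alternatives were other thresholds, filters and scalings, log2(CPM + 1) and Spearman's rho.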

Additional observations from a re-analysis of the deposited data

How the results depend on the processing

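No paired analysis was possible because the table has 1 column per group and none for single replicates, and leaving out a replicate was not run for the same reason. No difference of the 7 genes changed sign under any alternative. Of 63 differences, all stayed close when centred on the median, with recomputed TMM factors, without the filter or as log2(CPM + 1), which moved a value by at most 0.50. With columns scaled to 1 total, chosen after seeing the data, *CP* (−1.68) and *C1S* (−1.34) moved by genotype in anterior mesenchyme, and *C1R* there passed the rule (−1.02). Scaling to 1 total moved the median of all genes by up to 0.26. *C7* by position in *Sca*/+ mesenchyme passed the rule under all 3 scalings (−1.01 to −1.02), and *C1R* lost its call as log2(CPM + 1) in anterior epithelium by genotype (−0.94) and in *Sca*/+ epithelium by position (−0.91).

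At a rule of 0.58 log2 units, which 16.4% to 24.3% of all genes passed in a direction, 1 gene (*C7*) was lower and 3 were higher in *Sca*/+ posterior mesenchyme. At the same rule 1 gene (*C6*) was higher in *Sca*/+ anterior epithelium than mesenchyme. At 2 log2 units, passed by 1.62%, 1.40% and 0.881% of all genes in these 3 cases, 2 genes were lower by genotype in anterior epithelium, 2 in anterior mesenchyme, and 1 higher in posterior mesenchyme. By position at 2 log2 units, 1 was lower in *Sca*/+ mesenchyme (1.94% of all genes) and *C5* was higher there (1.41%). In WT mesenchyme all but *C5* and *C6* were lower by this rule (1.26%). In *Sca*/+ epithelium 1 was lower (0.871%) and 0 were higher (1.13%), while 3 were lower in *Sca*/+ anterior epithelium than mesenchyme (6.10%). A filter at 5 log2 CPM left *CP*, *C1S* and *C7* of 5589 genes, of which 3.10% to 11.5% passed the rule of 1 log2 unit in a direction. Then 3 were lower by genotype in anterior epithelium and 3 in anterior mesenchyme, 1 higher in posterior mesenchyme, 3 lower by position in WT mesenchyme, 0 higher in *Sca*/+ mesenchyme, 1 lower and 0 higher in *Sca*/+ epithelium, and 3 lower in epithelium in each jaw, since fewer genes were tested. Of 21 profiles named as most like a member, 12 were among the 10 highest by Spearman's rho.

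Depth limits *C2*, *C5* and *C6*, which rest on 5 to 8 steps in their lowest groups.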

Other observations

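Ratios of one gene to another within a group compare across groups with gene length held the same. *C1S* over *C1R*, whose products act as partners, was 4.39 (95% counting interval 3.30 to 5.93) in *Sca*/+ posterior, 3.73 (2.92 to 4.82) in *Sca*/+ anterior and 4.65 (4.06 to 5.35) in WT anterior mesenchyme. In WT posterior mesenchyme, where both genes were low, it was 1.43 (0.79 to 2.63). In epithelium it was 3.50 (1.98 to 6.54) in *Sca*/+ posterior, 1.43 (0.79 to 2.63) in *Sca*/+ anterior and 5.93 (3.99 to 9.12) in WT anterior tissue. The ratio was lowest in WT posterior mesenchyme and *Sca*/+ anterior epithelium, which both had 30 steps of *C1S* and 21 of *C1R*.

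*CP* over *C1S* was 0.62 (0.50 to 0.76) in *Sca*/+ posterior mesenchyme, below the interval of every other group. It was 2.43 (1.57 to 3.86) in WT posterior, 2.08 (1.82 to 2.40) in *Sca*/+ anterior and 2.64 (2.47 to 2.83) in WT anterior mesenchyme, and 2.00 to 4.02 in the 3 epithelia. *C1S* and *CP* therefore did not keep a constant ratio in posterior mesenchyme, where *Sca*/+ tissue had more *C1S* for its *CP* than WT tissue had. *C7* over *C6* was lowest in *Sca*/+ anterior epithelium, at 2.13 (1.28 to 3.61), and was 14.6 (5.98 to 46.3) in *Sca*/+ anterior and 11.7 (8.48 to 16.5) in WT anterior mesenchyme. These ratios were looked at after the levels were known and have no replicates.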
